A study of Mus musculus with 8 samples.

Results

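The genes described here encode the kinases, spindle motors, condensins and cytokinesis factors that carry a cell through G2 phase and mitosis. They were taken from a list of 46 gene symbols, and each gene was read from the probe set that is annotated to it alone. For a gene with several such probe sets, the brightest on average was used. All 46 genes were measured, among 19938 genes on the array. Expression was measured in KSL SLAM cells, a sorted fraction of mouse bone marrow rich in hematopoietic stem cells. The sort kept cells that were c-Kit+, Sca-1+ and CD150+ and removed those with lineage markers, CD48 or CD41. The cells came from mice given granulocyte colony-stimulating factor (G-CSF) under the skin at 125 mcg/kg, 2 times a day, and examined at 36 h, or from mice given phosphate-buffered saline (PBS) over the same 36 h. Each treatment had 4 independent samples, each on 1 MoGene 1.0 ST array, and the design text gives 5 to 10 mice for the cells of a sample. Strain, sex, age and genotype of the mice are not given in the labels. The text uses log2 intensities, on which a difference of 1 is a 2-fold change.

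Entry into mitosis begins when cyclin-bound CDK1 is freed of inhibitory phosphates by CDC25 phosphatases. Polo-like and aurora kinases then mature the centrosomes and correct the attachment of chromosomes, kinesin motors build and move the spindle, and condensins compact the chromosomes. The anaphase-promoting complex with CDC20 ends the process by destroying cyclin B and securin, after which the central spindle places the furrow of cytokinesis. Stem cells of adult bone marrow are mostly quiescent, and transcripts of these genes are made mainly by cells in G2 phase and mitosis. In a bulk sample, more cells in mitosis and more of these transcripts per cell cannot be told apart.

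The 8 arrays had like medians over all genes, between 5.74 and 5.89. PBS replicate 3 stood apart, with an interquartile range of 1.68 against 2.42 to 2.80 in the other arrays and a correlation with them of 0.883 to 0.903, where the other arrays correlated at 0.956 to 0.977. It was kept, and the value without it is given where it moves the fold change of a named gene or the median of a list by over 1.5 times. Kit, the gene of the receptor c-Kit, had intensities of 10.24 to 10.49 after G-CSF, against 10.45 to 10.94 after PBS, and Slamf1, the gene of CD150, had 6.05 to 7.16 after G-CSF, against 5.94 to 7.24 after PBS. The genes of 2 markers gated out also gave signal: Itga2b, of CD41, had 7.18 to 7.74 after G-CSF, against 7.06 to 7.72 after PBS, and Cd48 had 7.31, 7.24, 7.85 and 8.95 in G-CSF replicates 1 to 4, against 7.54, 7.01, 7.57 and 6.66 in PBS replicates 1 to 4. Ly6a, of Sca-1, was not analysed here. A probe set's brightness depends on its probes, so these levels do not show how pure the sorted cells were.

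Nearly all mitotic genes were brighter after G-CSF, although none passed the test across all genes. The 46 genes were chosen with earlier results of these data known, so the counts below are a description and not a test of the list. The log2 fold change was positive for 44 of 46, with a median of 0.66 and a range of -0.05 to 1.19, whereas 41.7% of all genes were positive and their median was -0.07. Without PBS replicate 3 the median was 0.65 for the mitotic genes and -0.02 for all genes. At an adjusted p under 0.05 (limma, Benjamini-Hochberg over all genes), 0 of 46 mitotic genes were called, where 0.0953% of all genes were (19, all higher). Without PBS replicate 3 the call was again made for 0 of 46, beside 0.13% of all genes. At an unadjusted p under 0.05, 29 of 46 were higher and 0 lower, beside 6.07% of all genes higher and 2.94% lower. Among the 9969 genes at or above the median intensity, 9.74% were higher at that p and 66.5% were positive, with a median of 0.13. Those 9969 genes included 42 of the mitotic genes, of which 28 were higher at that p. The other mitotic genes, Cdc25c, Nek2, Melk and Espl1, lay below the median intensity. All 4 G-CSF values lay above all 4 PBS values for 20 of 46, beside 3.37% of all genes, and below them for 0 of 46, beside 2.78%. Without PBS replicate 3, 30 mitotic genes were higher at an unadjusted p under 0.05, beside 5.64% of all genes, and 24 had every G-CSF value above the other 3 PBS values, beside 4.76%.

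The mean over the 46 genes came to 6.98, 7.09, 7.35 and 7.51 in G-CSF replicates 1 to 4, against 6.63, 6.68, 6.47 and 6.55 in PBS replicates 1 to 4. The 2 groups of array means did not overlap. G-CSF replicates 4 and 3 carried the highest means, and the lowest of the G-CSF arrays, replicate 1, lay above each PBS array. Of the 46 genes, 25 were brightest in G-CSF replicate 4, beside 9.98% of all genes, and 14 in G-CSF replicate 3, beside 8.18%. That left 7 that were brightest in another array. PBS replicate 3, the array of narrow spread, was the brightest for 2 of the 46, beside 42.1% of all genes. It was the lowest array for 16 of the 46, beside 22.7%. These counts were not compared with those of genes of like brightness. Without G-CSF replicate 4, 21 of the 46 were higher at an unadjusted p under 0.05, beside 4.05% of all genes.

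**Figure D1:**
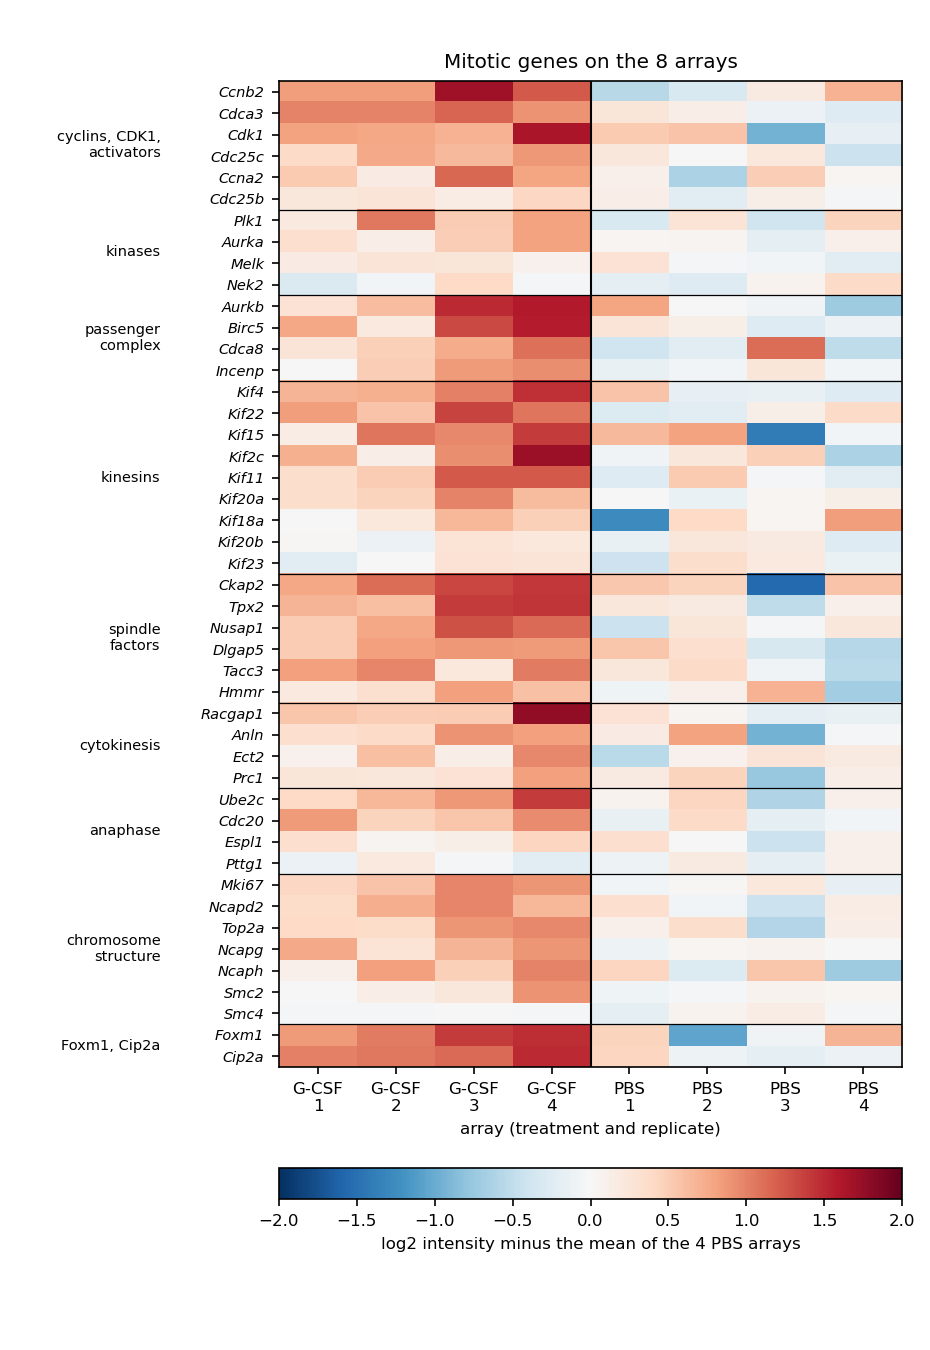
Heat map of the 46 mitotic genes in rows, grouped by role, on the 4 G-CSF and 4 PBS arrays in columns. Colour gives the log2 intensity minus the mean of the 4 PBS arrays, and the deepest reds lie in G-CSF replicates 3 and 4, while Smc4 and Pttg1 stay pale on every G-CSF array.

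Promoters of genes of this programme are known for the cell cycle genes homology region (CHR), through which the MuvB complexes act, and for CCAAT boxes, which bind the factor NF-Y. Windows of 300 bases, from 250 before to 50 after each annotated start (RefSeq, GRCm38.p6), were at hand for 37 of the 46 genes, with 39 windows in all, and were searched on both strands. The CHR was searched as TTTGAA or TTCGAA and was found in 30 of 39 windows, 76.9%, beside 19.2% of the 32851 windows of all genes. CCAAT was found in 71.8%, beside 37.4%. Both were found in 66.7%, beside 7.52% of all windows. The E2F site, searched as TTCGCGC, as TTGGCGC and as TTCCCGC, was found in 28.2%, beside 8.07%. The motifs overlapped each other in 4 of the 39 windows. Members with a CHR in the window had a median log2 fold change of 0.67 (28 genes) and members with none 0.59 (9 genes). The set printed holds Ccnb2, the cyclin with the larger fold change, Cdca3 and Cip2a, which had the lowest p of the 46 genes, and Racgap1 and Kif23, which encode partners in 1 complex. Capitals mark CHR, CCAAT and E2F letters on either strand, and each line runs 5′ to 3′ along the strand of its gene.
Ccnb2, chr9:70421505-70421804, minus strand: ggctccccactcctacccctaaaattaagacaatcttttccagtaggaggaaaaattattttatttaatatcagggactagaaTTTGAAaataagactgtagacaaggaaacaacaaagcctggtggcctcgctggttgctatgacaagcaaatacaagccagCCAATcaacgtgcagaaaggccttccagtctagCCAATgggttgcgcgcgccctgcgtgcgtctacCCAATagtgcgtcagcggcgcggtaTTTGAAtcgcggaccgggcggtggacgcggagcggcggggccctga
Cdca3, chr6:124829926-124830225, plus strand: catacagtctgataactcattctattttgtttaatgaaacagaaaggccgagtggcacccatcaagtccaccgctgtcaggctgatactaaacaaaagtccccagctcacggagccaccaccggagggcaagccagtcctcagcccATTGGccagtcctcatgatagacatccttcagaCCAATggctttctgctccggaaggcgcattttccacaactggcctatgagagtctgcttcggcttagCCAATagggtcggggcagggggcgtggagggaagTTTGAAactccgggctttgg
Cip2a, chr16:48993938-48994237, plus strand: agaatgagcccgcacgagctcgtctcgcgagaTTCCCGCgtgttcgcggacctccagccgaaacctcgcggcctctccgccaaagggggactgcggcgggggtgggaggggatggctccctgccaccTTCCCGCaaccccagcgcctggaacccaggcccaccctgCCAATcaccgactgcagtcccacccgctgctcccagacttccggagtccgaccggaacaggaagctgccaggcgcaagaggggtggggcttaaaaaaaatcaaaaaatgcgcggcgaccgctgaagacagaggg
Racgap1, chr15:99651607-99651906, minus strand: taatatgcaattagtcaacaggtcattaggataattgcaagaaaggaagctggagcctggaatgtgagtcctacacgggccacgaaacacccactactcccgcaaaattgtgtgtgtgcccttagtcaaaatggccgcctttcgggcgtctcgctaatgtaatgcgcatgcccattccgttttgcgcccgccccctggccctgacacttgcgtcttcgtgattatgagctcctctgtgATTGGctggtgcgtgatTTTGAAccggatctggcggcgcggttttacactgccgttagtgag
Kif23, chr9:61946750-61947049, minus strand: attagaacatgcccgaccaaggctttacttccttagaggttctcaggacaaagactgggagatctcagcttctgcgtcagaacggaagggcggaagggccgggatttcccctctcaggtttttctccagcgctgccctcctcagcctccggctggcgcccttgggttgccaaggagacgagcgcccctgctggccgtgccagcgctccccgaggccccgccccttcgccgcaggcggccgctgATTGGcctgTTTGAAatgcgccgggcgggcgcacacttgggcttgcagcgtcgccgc
In the Ccnb2 window, 3 CCAAT boxes began 87, 54 and 21 bases before the annotated start and a CHR 5 bases into the transcript, with a further TTTGAA 167 bases before the start. The Cdca3 window had the same kinds of motif, with the CHR 31 bases into the transcript. The Cip2a window held 1 CCAAT box, 84 bases before the start, and 2 E2F motifs but none of the CHR letters. Racgap1 and Kif23 each had 1 CCAAT box, 12 and 7 bases before the start, and 1 CHR, 6 and 3 bases into the transcript.

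Genes of the cyclin and CDK1 switch were brighter after G-CSF as a group. Of the 6 genes, 6 were positive, 5 were higher at an unadjusted p under 0.05 and 5 had groups that did not overlap, with a median log2 fold change of 0.82. Over all genes, 41.7% were positive, 6.07% were higher at that p and 3.37% had all G-CSF values above all PBS values. These shares stand beside the counts of each role group below as well. Ccnb2 encodes cyclin B2, a subunit that activates CDK1, and had intensities of 8.98, 8.97, 9.84 and 9.37 in G-CSF replicates 1 to 4, against 7.58, 7.83, 8.32 and 8.83 in PBS replicates 1 to 4. Its G-CSF values lay above its PBS values with the narrowest gap to PBS replicate 4, and the log2 fold change was 1.15 (SE 0.29, adjusted p = 0.275). Cdk1, the kinase itself, had 7.57, 7.54, 7.46 and 8.40 in G-CSF replicates 1 to 4, against 7.29, 7.34, 5.83 and 6.61 in PBS replicates 1 to 4. The G-CSF group was higher without overlap, replicate 4 stood above the other 3, and PBS replicate 3 was the lowest array. The log2 fold change of Cdk1 was 0.97 (SE 0.34, adjusted p = 0.453) with all arrays, and 0.66 when PBS replicate 3 was left out.

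Cdca3 encodes an adaptor, also called Tome-1, that was described in frog egg extracts as promoting the destruction of the CDK1 inhibitor WEE1. It had intensities of 8.05, 8.04, 8.21 and 7.95 in G-CSF replicates 1 to 4, against 7.29, 7.18, 6.94 and 6.79 in PBS replicates 1 to 4. The G-CSF values lay close together and well above the PBS values, and the log2 fold change was 1.01 (SE 0.17, adjusted p = 0.0644). Only Cip2a had a lower adjusted p among the 46 genes. Arrays weighted by their quality gave an adjusted p of 0.032 for Cdca3, and over the 19 alternatives it ran from 0.032 to 0.245. Ccna2, cyclin A2, which acts from S phase to early mitosis, had 8.55, 8.20, 9.17 and 8.82 in G-CSF replicates 1 to 4, against 8.13, 7.39, 8.53 and 8.07 in PBS replicates 1 to 4. Its groups overlapped through G-CSF replicate 2 and PBS replicate 3, with a log2 fold change estimated at 0.65 (SE 0.27, adjusted p = 0.529). The 2 phosphatases that activate CDK1 both had G-CSF values above all PBS values. Cdc25c had 5.44 to 5.92 after G-CSF, against 4.63 to 5.28 after PBS, and a log2 fold change estimated at 0.66 (SE 0.20, adjusted p = 0.357), and Cdc25b had 6.36 to 6.62 after G-CSF, against 5.99 to 6.33 after PBS, with a log2 fold change estimated at 0.26 (SE 0.16, adjusted p = 0.586).

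Foxm1 and Cip2a had the 2 largest fold changes of the 46 genes with all arrays. Foxm1 encodes the forkhead factor that drives many genes of G2 phase and mitosis, and had intensities of 6.82, 7.01, 7.37 and 7.45 in G-CSF replicates 1 to 4, against 6.42, 4.92, 5.90 and 6.65 in PBS replicates 1 to 4. The groups did not overlap, but the PBS arrays spread widely, with replicate 2 the lowest, and the log2 fold change was 1.19 (SE 0.34, adjusted p = 0.326). Cip2a, an inhibitor of the phosphatase PP2A, had 6.46, 6.51, 6.60 and 6.95 in G-CSF replicates 1 to 4, against 5.88, 5.36, 5.26 and 5.33 in PBS replicates 1 to 4. Every G-CSF value lay above every PBS value, of which replicate 1 was the highest, and the log2 fold change of Cip2a was 1.17 (SE 0.20, adjusted p = 0.0639), a 2.26-fold difference. Cip2a had an adjusted p of 0.0363 when arrays were weighted and of 0.0393 when PBS replicate 1 was left out, and it ran from 0.0363 to 0.259 over the 19 alternatives.

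**Figure D2:**
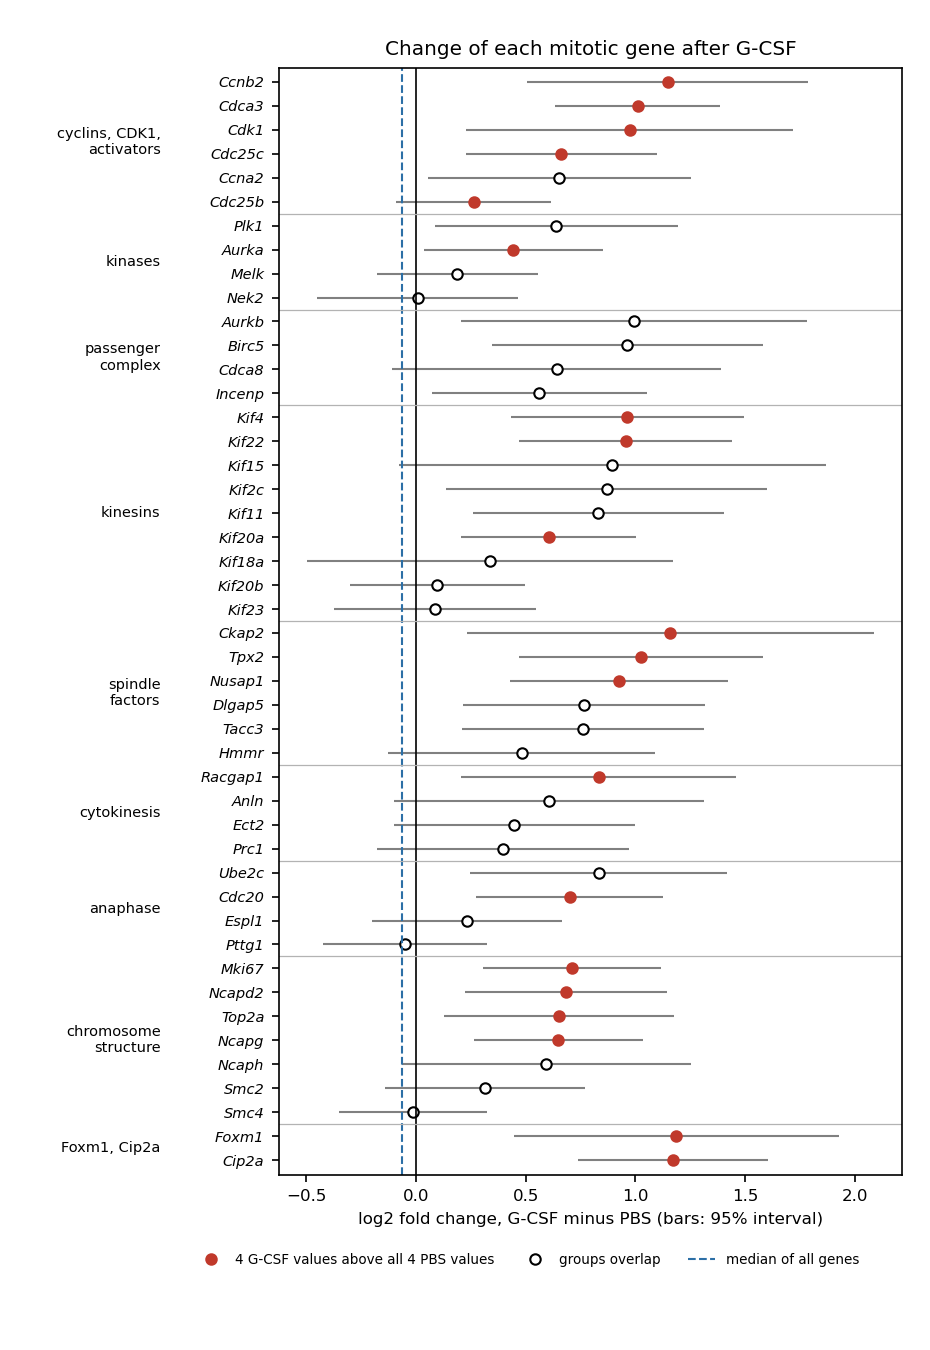
Log2 fold change, G-CSF minus PBS, of each of the 46 mitotic genes with its 95% interval from limma, grouped by role. Filled points mark the 20 genes whose G-CSF values all lay above the PBS values, open points the 26 with overlapping groups, and the dashed line marks the median of all genes at -0.07.

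The 4 mitotic kinases outside the passenger complex had a wide range of fold changes. All were positive and 2 were higher at an unadjusted p under 0.05, with a median of 0.32. Aurka, aurora A of the centrosomes and spindle poles, had 7.17, 6.98, 7.34 and 7.65 in G-CSF replicates 1 to 4, against 6.88, 6.90, 6.65 and 6.94 in PBS replicates 1 to 4, so that a narrow margin separated the groups, and its log2 fold change was 0.44 (SE 0.19, adjusted p = 0.531). Plk1, the polo-like kinase of mitotic entry, had 6.62, 7.48, 6.92 and 7.22 in G-CSF replicates 1 to 4, against 6.11, 6.69, 6.02 and 6.86 in PBS replicates 1 to 4. Its groups overlapped, since G-CSF replicate 1 lay below PBS replicates 2 and 4, and the log2 fold change was 0.64 (SE 0.25, adjusted p = 0.511). Nek2, a kinase that separates the centrosomes, had 5.10 to 5.78 after G-CSF, against 5.12 to 5.76 after PBS, and a log2 fold change of 0.01 (95% interval -0.45 to 0.47), and of 0.03 without PBS replicate 3. Melk had 5.54 to 5.71 after G-CSF, against 5.25 to 5.75 after PBS, with a log2 fold change of 0.19 (95% interval -0.18 to 0.55). For both the groups overlapped and the mean intensity lay below the median of all genes. The interval of Nek2 leaves room for a difference of about the size of the Aurka estimate.

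The chromosomal passenger complex corrects faulty chromosome attachments and later moves to the central spindle. Its 4 genes had a median log2 fold change of 0.80, 3 of 4 were higher at an unadjusted p under 0.05, and none had groups free of overlap. Aurkb, the catalytic subunit aurora B, had 6.80, 7.13, 8.001 and 8.11 in G-CSF replicates 1 to 4, against 7.30, 6.51, 6.45 and 5.80 in PBS replicates 1 to 4. Replicates 3 and 4 of G-CSF stood above all PBS arrays, but replicates 1 and 2 lay below PBS replicate 1, and the log2 fold change was 0.99 (SE 0.36, adjusted p = 0.464). Birc5, which encodes survivin, had 7.59, 7.01, 8.14 and 8.39 in G-CSF replicates 1 to 4, against 7.07, 6.94, 6.56 and 6.71 in PBS replicates 1 to 4. G-CSF replicate 2 lay just below PBS replicate 1, and the other G-CSF arrays lay above every PBS array. Its log2 fold change was 0.96 (SE 0.28, adjusted p = 0.342). Incenp, the scaffold, had 6.85 to 7.79 after G-CSF, against 6.71 to 7.10 after PBS, and a log2 fold change estimated at 0.56 (SE 0.22, adjusted p = 0.516). Cdca8, or borealin, had 7.34, 7.56, 7.83 and 8.19 in G-CSF replicates 1 to 4, against 6.70, 6.86, 8.21 and 6.59 in PBS replicates 1 to 4. PBS replicate 3 was its highest array, and the log2 fold change was 0.64 with that array and 1.01 without it.

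All 9 kinesins were positive, 5 were higher at an unadjusted p under 0.05 and 3 had groups without overlap, with a median log2 fold change of 0.83, and 0.62 without PBS replicate 3. After renewed quantile normalization 7 of 9 were positive, Kif20b and Kif23 being the exceptions. The chromokinesins Kif22 and Kif4, motors of chromosome arms, had no overlap between the groups. Kif22 had 6.61, 6.35, 7.13 and 6.85 in G-CSF replicates 1 to 4, against 5.51, 5.56, 5.89 and 6.16 in PBS replicates 1 to 4, with a log2 fold change estimated at 0.96 (SE 0.22, adjusted p = 0.208). Kif4 had 6.27, 6.29, 6.60 and 7.05 in G-CSF replicates 1 to 4, against 6.16, 5.42, 5.44 and 5.33 in PBS replicates 1 to 4, and a log2 fold change estimated at 0.96 (SE 0.24, adjusted p = 0.265). Kif11, or Eg5, the motor that pushes the spindle poles apart, had 7.59, 7.75, 8.47 and 8.45 on the 4 G-CSF arrays in order of replicate, against 6.98 to 7.75 after PBS. G-CSF replicates 1 and 2 lay below PBS replicate 2, and the log2 fold change was 0.83 (SE 0.26, adjusted p = 0.387).

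Kif15, which can stand in for Eg5, had 6.71, 7.63, 7.52 and 7.97 in G-CSF replicates 1 to 4, against 7.20, 7.37, 5.16 and 6.51 in PBS replicates 1 to 4. PBS replicate 3 was far below the other arrays, and the log2 fold change was 0.90 (SE 0.44, adjusted p = 0.56) with it and 0.43 without it. Kif2c, a motor that takes microtubules apart at the centromere, had 5.54 to 7.12 after G-CSF, against 4.77 to 5.89 after PBS, and a log2 fold change estimated at 0.87 (SE 0.33, adjusted p = 0.5), with overlapping groups. Kif20a, which carries the passenger complex to the central spindle, had 6.14 to 6.78 after G-CSF, against 5.66 to 5.90 after PBS, with a log2 fold change estimated at 0.60 (SE 0.18, adjusted p = 0.357), and its groups did not overlap. The remaining 3 kinesins had overlapping groups and intervals across 0. Kif18a, which damps the movement of chromosomes at the spindle equator, had a log2 fold change of 0.34 (95% interval -0.50 to 1.17), with 4.60 in PBS replicate 1 and 5.91 to 6.71 in the other PBS arrays. The cytokinesis motors Kif20b and Kif23 had log2 fold changes of 0.10 (95% interval -0.30 to 0.50) and 0.09 (95% interval -0.37 to 0.55). Leaving out PBS replicate 3, Kif20b had 0.16 and Kif23 0.15.

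Spindle assembly factors had a median log2 fold change of 0.85, with 6 of 6 positive, 5 higher at an unadjusted p under 0.05 and 3 without overlap. Tpx2, which activates aurora A and nucleates microtubules near chromosomes, had 6.73, 6.64, 7.44 and 7.47 in G-CSF replicates 1 to 4, against 6.27, 6.23, 5.54 and 6.14 in PBS replicates 1 to 4. The G-CSF arrays were all higher, replicates 3 and 4 most, and the log2 fold change was 1.03 (SE 0.25, adjusted p = 0.256). Nusap1, a microtubule binder around chromosomes, had 7.32, 7.60, 8.10 and 7.96 in G-CSF replicates 1 to 4, against 6.39, 7.06, 6.78 and 7.05 in PBS replicates 1 to 4, without overlap and with a log2 fold change estimated at 0.92 (SE 0.23, adjusted p = 0.243). Ckap2, a spindle microtubule protein, had 6.22, 6.56, 6.79 and 6.87 in G-CSF replicates 1 to 4, against 5.99, 5.89, 3.90 and 6.02 in PBS replicates 1 to 4. Its log2 fold change of 1.16 (SE 0.42, adjusted p = 0.469) included PBS replicate 3, which stood far below the other arrays. Without that array Ckap2 had 0.64 (adjusted p = 0.307), and the groups remained apart. Dlgap5, which stabilizes the fibres at kinetochores, had 6.56 to 6.91 after G-CSF, against 5.47 to 6.60 after PBS, and a log2 fold change estimated at 0.77 (SE 0.25, adjusted p = 0.419). Tacc3, which crosslinks those fibres, had 6.69 to 7.52 after G-CSF, against 5.94 to 6.86 after PBS, with a log2 fold change estimated at 0.76 (SE 0.25, adjusted p = 0.42). Hmmr, a spindle pole protein, had 6.39 to 7.01 after G-CSF, against 5.49 to 6.88 after PBS, with a log2 fold change of 0.48 (95% interval -0.13 to 1.09), and 0.71 without PBS replicate 3. Groups overlapped for these last 3 genes with all arrays, and for Hmmr they did not overlap without PBS replicate 3.

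The 4 genes of the central spindle and furrow had a median log2 fold change of 0.53, and 1 of them was higher at an unadjusted p under 0.05. Racgap1, which joins the motor Kif23 in the centralspindlin complex, had 6.13, 6.07, 6.08 and 7.35 in G-CSF replicates 1 to 4, against 5.86, 5.62, 5.39 and 5.43 in PBS replicates 1 to 4. All G-CSF values lay above the PBS values, with replicate 4 far above the other G-CSF arrays, and the log2 fold change was 0.83 (SE 0.28, adjusted p = 0.444). Its partner Kif23 had 7.21, 7.43, 7.71 and 7.67 in G-CSF replicates 1 to 4, against 7.01, 7.77, 7.61 and 7.28 in PBS replicates 1 to 4, with the groups mixed throughout. The 95% interval of Racgap1, 0.21 to 1.46, overlapped that of Kif23 given above, and the difference between the 2 genes was not tested. Ect2, the exchange factor that activates RhoA at the furrow, had 6.38 to 7.26 after G-CSF, against 5.75 to 6.55 after PBS, with a log2 fold change of 0.45 (95% interval -0.10 to 1.00). Anln, or anillin, had 6.79 to 7.35 after G-CSF, against 5.51 to 7.27 after PBS, with a log2 fold change of 0.61, with 0.29 without PBS replicate 3. Prc1, the bundler of the central spindle, had 6.78, 6.76, 6.82 and 7.35 in G-CSF replicates 1 to 4, against 6.71, 6.98, 5.78 and 6.66 in PBS replicates 1 to 4. Its log2 fold change was 0.40 with PBS replicate 3, its lowest array, and 0.14 without it.

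Genes that trigger anaphase had a median log2 fold change of 0.47. The 2 that act on the anaphase-promoting complex were higher at an unadjusted p under 0.05, and securin and separase were not. Cdc20, its activator, had 7.48, 7.08, 7.18 and 7.58 in G-CSF replicates 1 to 4, against 6.48, 7.01, 6.45 and 6.58 in PBS replicates 1 to 4, without overlap, and a log2 fold change estimated at 0.70 (SE 0.19, adjusted p = 0.313). Ube2c, the ubiquitin-conjugating enzyme of the complex, had 7.79, 8.06, 8.26 and 8.79 in G-CSF replicates 1 to 4, against 7.46, 7.83, 6.79 and 7.49 in PBS replicates 1 to 4. G-CSF replicate 1 lay below PBS replicate 2, and the log2 fold change was 0.83 (SE 0.27, adjusted p = 0.39). Leaving out PBS replicate 3 gave 0.63. Pttg1, or securin, which holds separase inactive, had 7.54, 7.85, 7.62 and 7.44 in G-CSF replicates 1 to 4, against 7.55, 7.84, 7.49 and 7.77 in PBS replicates 1 to 4, so that the groups were mixed, with a log2 fold change of -0.05 (95% interval -0.42 to 0.32). Espl1, separase, had 5.72 to 6.10 after G-CSF, against 5.25 to 6.01 after PBS, with a log2 fold change of 0.23 (95% interval -0.20 to 0.67). Without PBS replicate 3, its lowest array, Espl1 had 0.09, and Pttg1 had -0.11. The mean intensity of Espl1 lay below the median of all genes. The difference between the pairs was not tested.

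**Figure D3:**
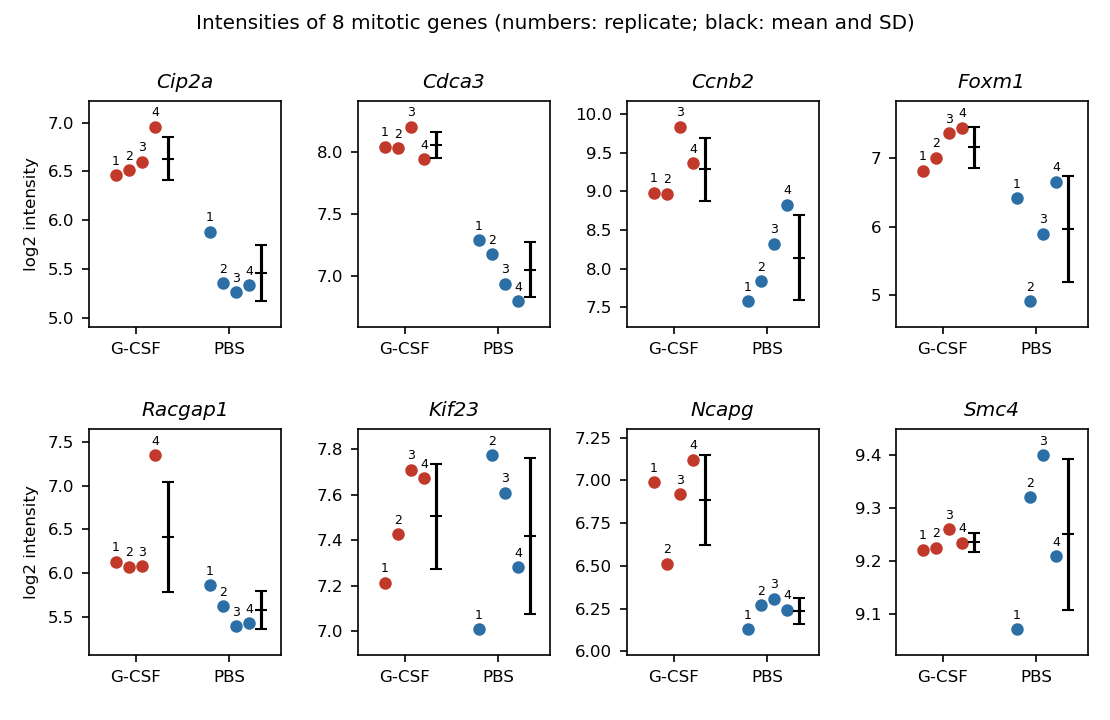
Log2 intensity of 8 mitotic genes on each array, with the replicate number above each point and the mean and SD of the 4 values in black. The G-CSF points of Cip2a, Cdca3, Ccnb2, Foxm1, Racgap1 and Ncapg lie above all PBS points, and those of Kif23 and Smc4 lie among them. Each panel has its own vertical range.

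Proteins of chromosome structure had a median log2 fold change of 0.65, with 4 of 7 genes higher at an unadjusted p under 0.05. Those 4 genes also had groups without overlap. Mki67, which encodes the proliferation marker Ki-67, a coat of mitotic chromosomes, had 8.50, 8.66, 9.07 and 8.97 in G-CSF replicates 1 to 4, against 8.03, 8.11, 8.30 and 7.92 in PBS replicates 1 to 4. The groups did not overlap, and the log2 fold change was 0.71 (SE 0.18, adjusted p = 0.292). Top2a, which untangles sister DNA, had 8.56, 8.54, 9.05 and 9.13 in G-CSF replicates 1 to 4, against 8.27, 8.52, 7.58 and 8.31 in PBS replicates 1 to 4. G-CSF replicate 2 lay barely above PBS replicate 2, PBS replicate 3 was lowest, and the log2 fold change was 0.65 (SE 0.24, adjusted p = 0.472). Leaving out PBS replicate 3 gave 0.45.

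Condensin is built from the ATPases SMC2 and SMC4, which 2 condensin complexes share, and in condensin I from the subunits NCAPG, NCAPD2 and NCAPH. Ncapg had 6.99, 6.51, 6.92 and 7.12 in G-CSF replicates 1 to 4, against 6.13, 6.27, 6.31 and 6.24 in PBS replicates 1 to 4, without overlap, and a log2 fold change estimated at 0.65 (SE 0.18, adjusted p = 0.303). Ncapd2 had 8.09, 8.45, 8.69 and 8.39 in G-CSF replicates 1 to 4, against 8.06, 7.66, 7.30 and 7.86 in PBS replicates 1 to 4. Its groups were barely apart, at G-CSF replicate 1 and PBS replicate 1, and its log2 fold change was 0.68 (SE 0.21, adjusted p = 0.373). Ncaph had 6.24 to 7.14 after G-CSF, against 5.44 to 6.70 after PBS with overlap, and a log2 fold change of 0.59 (95% interval -0.07 to 1.25). Smc2 had 7.53, 7.66, 7.76 and 8.42 in G-CSF replicates 1 to 4, against 7.45, 7.51, 7.59 and 7.57 in PBS replicates 1 to 4, where G-CSF replicate 4 stood clear of all the other arrays, and a log2 fold change of 0.31 (95% interval -0.14 to 0.77). Smc4 had 9.22, 9.22, 9.26 and 9.23 in G-CSF replicates 1 to 4, against 9.07, 9.32, 9.40 and 9.21 in PBS replicates 1 to 4. The 4 G-CSF values of Smc4 lay close together and inside the range of the PBS values, with a log2 fold change of -0.02 (95% interval -0.35 to 0.32), and of 0.03 without PBS replicate 3.

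A further list of 44 mitosis genes, chosen with earlier results of these data known, holds further genes of mitosis outside the 46. Of the 42 measured, 42 had a positive log2 fold change with all arrays and 39 after renewed quantile normalization, and the median was 0.48. Over all genes, 41.7% were positive, and 44.2% after that normalization. None of the 42 was called over all genes, beside 0.0953% of all genes. At an unadjusted p under 0.05, 17 were higher, beside 6.07% of all genes. For 10, all G-CSF values lay above all PBS values, beside 3.37% of all genes. Sgo1, which protects the cohesion of sister centromeres, had 6.16, 6.66, 6.53 and 6.32 in G-CSF replicates 1 to 4, against 5.49, 5.20, 5.49 and 5.53 in PBS replicates 1 to 4, with a clear gap between the groups and a log2 fold change estimated at 0.99 (SE 0.18, adjusted p = 0.0745). Cenpe, a kinesin of the kinetochore, had a log2 fold change of 0.93 ± 0.21 SE, Aspm, of the spindle poles, 0.78 ± 0.19 SE and Knstrn, a kinetochore and spindle protein, 0.79 ± 0.23 SE. Their means per array were 6.72, 6.86, 7.07 and 7.16 in G-CSF replicates 1 to 4, against 6.54, 6.52, 6.35 and 6.35 in PBS replicates 1 to 4, so the groups did not overlap.

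Lists of related function that are not confined to mitosis had medians nearer to that of all genes. Of 18 subunits and inhibitors of the anaphase-promoting complex, 3 were higher at an unadjusted p under 0.05, beside 6.07% of all genes, and none was lower. Their median log2 fold change was 0.17, 0.09 without PBS replicate 3 and 0.01 after renewed quantile normalization. In log2 fold change, the 4 with the lowest p were Anapc15 with 0.69 (SE 0.21, adjusted p = 0.373), Anapc13 with 1.05, Anapc2 with 0.57 and Cdc26 with 0.47. Of these, Anapc13 had 7.51 in PBS replicate 3 and 9.32 to 9.74 in the other PBS arrays. With that array left out, Anapc13 had 0.53 and Anapc2 0.33. A list of 17 regulators of mitotic transcription held the MuvB core, E2F factors, pocket proteins and NF-Y subunits. Of the 17, 1 was higher at an unadjusted p under 0.05, near the 6.07% of all genes that were. It was Rbl1, which encodes the pocket protein p107, with a log2 fold change estimated at 0.76 (SE 0.31, adjusted p = 0.517). In log2 fold change, Lin52 of the MuvB core had -0.56, E2f7 0.49 and the NF-Y subunit Nfyb 0.52. The median of these regulators was 0.11, with 13 of 17 positive, and -0.07 with 7 of 17 positive after renewed quantile normalization. Over all genes, 41.7% were positive, and 44.2% after that normalization. Among genes at or above the median intensity, 66.5% were positive and the median log2 fold change was 0.13, near the medians of these regulators and of the anaphase-promoting complex list. Kinesins and kinesin light chains of transport had a median of -0.10, with 6 of 19 positive, 0 higher and 1 lower at an unadjusted p under 0.05 (limma), and 0 past the adjusted threshold. The lower one was Kif26b with a log2 fold change of -0.56 ± 0.24 SE, and Kif5a had -0.46, Kif3b 0.40 and Kif21a -0.35. These log2 fold changes without PBS replicate 3 were -0.37 for Kif26b, -0.28 for Kif5a, 0.25 for Kif3b and -0.21 for Kif21a.

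Markers of neutrophils and of granulocyte-monocyte progenitors were also brighter after G-CSF. Neutrophil markers averaged 9.89, 9.85, 7.88 and 8.49 in G-CSF replicates 1 to 4, against 7.82, 6.83, 7.25 and 7.04 in PBS replicates 1 to 4. Their mean was highest in G-CSF replicates 1 and 2, whereas the mean of the mitotic genes was highest in G-CSF replicates 4 and 3. Of 23 neutrophil markers measured, 23 were positive, beside 41.7% of all genes. At an unadjusted p under 0.05, 19 were higher, beside 6.07% of all genes. Their summed intensity was 19440 to 49992 after G-CSF, against 7816 to 18154 after PBS. By p, the neutrophil list was led by Anxa1, with a log2 fold change estimated at 2.14 (SE 0.34, adjusted p = 0.0559), Stfa2 with 4.55 ± 0.76 SE, Ltf, of lactoferrin, with 2.33 ± 0.43 SE and Cxcr2, a chemokine receptor, with 3.35 ± 0.72 SE. Granulocyte-monocyte progenitor markers, of a cell type that divides, averaged 8.17, 8.04, 7.84 and 8.16 in G-CSF replicates 1 to 4, against 7.77, 7.42, 6.94 and 6.80 in PBS replicates 1 to 4. Of 19 progenitor markers, 11 were higher at that p, beside 6.07% of all genes, and 1 was called over all genes, beside 0.0953%. The one called was Csf2rb, a receptor chain for GM-CSF and IL-3, with a log2 fold change estimated at 1.59 (SE 0.21, adjusted p = 0.0198). In log2 fold change, Prtn3, a granule protease, had 1.38, Prss57 0.88 and Plac8 1.23. The summed intensity of the progenitor list was 7773 to 9734 after G-CSF, against 3898 to 6260 after PBS. Cd34, which was not among the markers of the sort, was named outside the rule for named genes. So were Cd48, which the sort gates out, and Slamf1 and Itga2b above. Cd34, a marker of progenitors and of a part of stem cells, had 9.84, 10.02, 10.67 and 10.98 in G-CSF replicates 1 to 4, against 9.27, 9.80, 8.68 and 10.27 in PBS replicates 1 to 4. Neither Cd48 nor Cd34 passed the threshold (limma, adjusted p = 0.578 for Cd48 and 0.517 for Cd34). The highest arrays of both Cd48 and Cd34 were G-CSF replicates 4 and 3, as for the mitotic mean. The mean of the whole progenitor list, which includes Cd34, was highest in G-CSF replicates 1 and 4, and replicate 3 was its lowest G-CSF array. The part of these other cells in the difference of the mitotic genes was not tested.

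The remaining marker lists had medians of 0.16 or below. Stem cell markers averaged 8.27 to 8.50 after G-CSF, against 7.82 to 8.65 after PBS, with a median log2 fold change of -0.03 (-0.14 without PBS replicate 3). Of 14 stem cell markers, 1 was higher at an unadjusted p under 0.05, near the 6.07% of all genes that were. That gene was Esam, an adhesion protein of stem cells, with a log2 fold change estimated at 0.89 (SE 0.20, adjusted p = 0.206), while Kit had -0.35, Tek 0.66 and Mecom -0.34. Tek had 5.15 in PBS replicate 3 and 6.41 to 7.07 in the other PBS arrays, and its log2 fold change was 0.26 without that array. For markers of monocytes and macrophages the median was 0.16, and -0.05 without PBS replicate 3, with 2 of 13 higher at that p, and array means of 6.75 to 8.26 after G-CSF, against 6.91 to 8.39 after PBS. Erythroid markers, of another dividing lineage, had a median of -0.25 (-0.40 without PBS replicate 3) and 0 of 9 higher, with a summed intensity of 1833 to 4735 after G-CSF, against 2093 to 7277 after PBS. Megakaryocyte, B cell and T and NK cell markers had medians of -0.28, -0.23 and -0.25, and 0 of 7, 0 of 11 and 0 of 11 were higher at that p, while 1, 3 and 1 were lower, beside 2.94% of all genes. The median of the T and NK cell markers without PBS replicate 3 was -0.07. Of the genes listed, 9 of 13 erythroid and 7 of 11 megakaryocyte markers were measured.

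**Figure D4:**
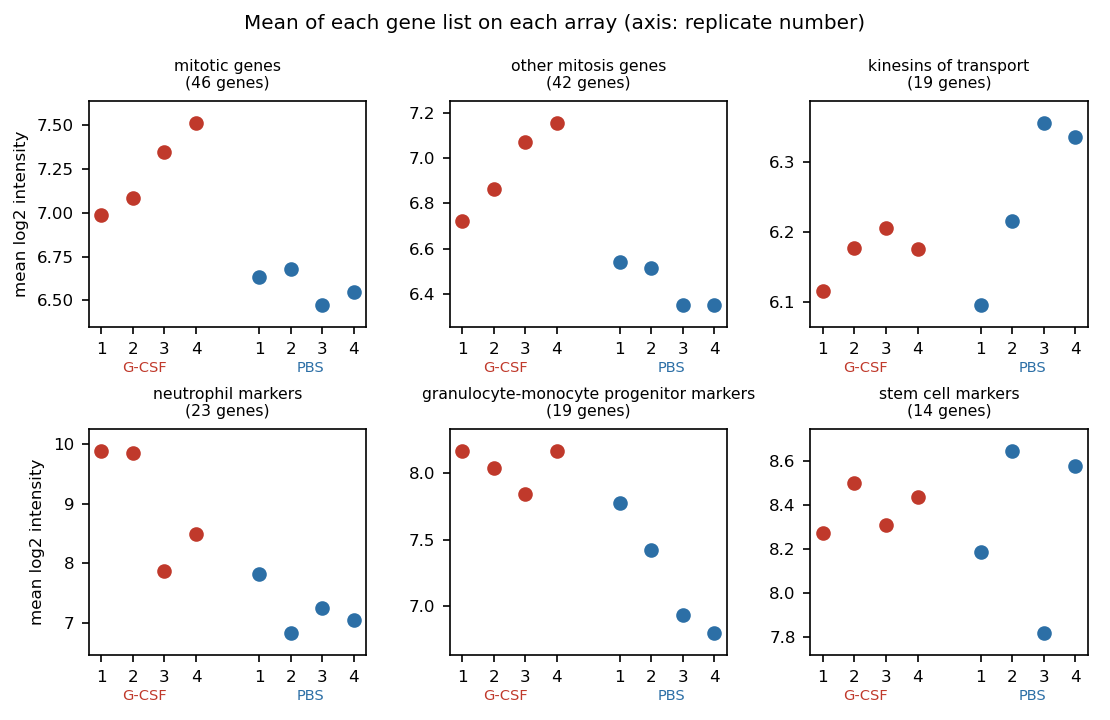
Mean log2 intensity of 6 gene lists on each array, with G-CSF replicates on the left and PBS replicates on the right of each panel. The mitotic genes, the other mitosis genes, the neutrophil markers and the progenitor markers have G-CSF means above all PBS means. Both mitosis lists are highest in G-CSF replicates 3 and 4, and the neutrophil markers in G-CSF replicates 1 and 2. Transport kinesins and stem cell markers overlap between the groups. Each panel has its own vertical range.

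Within a group, the mitotic genes varied about as much as genes in general or more. The median SD over the 46 genes was 0.29 after G-CSF and 0.34 after PBS, and 0.30 in PBS without replicate 3. Over all genes it was 0.22 after G-CSF and 0.34 after PBS, and 0.20 in PBS without replicate 3. The G-CSF spread was widest for Kif2c (SD 0.66), Aurkb (SD 0.64) and Racgap1 (SD 0.63), and narrowest for Smc4 (SD 0.02). Of the 46 genes, 6 differed 2-fold or more between the group means, namely Foxm1, Ckap2, Cip2a, Ccnb2, Tpx2 and Cdca3. The share of all genes that did so was not counted. Without PBS replicate 3, Ckap2 (0.64), Tpx2 (0.86) and Cdca3 (0.97) had log2 fold changes below 1. Cdca8 (1.01) and Kif2c (1.03) then lay above 1.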

How the data were processed

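Per the labels' protocols, column-purified RNA of KSL SLAM cells was amplified by the NuGen Ovation method and carried biotin. The authors deposited a linear intensity for each probe set of each array, computed by RMA according to the submitters' processing notes. Software version and options of RMA, scan dates, detection calls and batches were not given in the sources used here, so background correction and slide could not be varied. The number of arrays limits the precision. Here log2 was taken of each intensity. Of 35556 probe sets, 21789 had 1 gene symbol in the platform annotation, 1621 several and 12146 none, and 21698 of the first were found in RefSeq (GRCm38.p6), with 0 symbols changed. The brightest probe set of each gene gave 19938 genes. The comparison used limma 3.58.1 (R 4.3.3, moderated 2-sided test, no covariate, no filter), adjusted by Benjamini-Hochberg over all genes with a threshold of 0.05, and the script was tested on simulated data. The members and lists were chosen with earlier results of these data known, and lists are given by counts and medians with no test. Each mitotic gene could be named, and up to 4 genes of each other list with the lowest p. Outside that rule, Slamf1, Itga2b, Cd48 and Cd34 were named. Alternatives varied the moderation, array weights, normalization, probe sets, dim genes, replicate block and arrays. Promoters come from RefSeq.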

Additional observations from a re-analysis of the deposited data

Results flagged for a closer look

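Among the 92 groups of 4 values (46 genes in each of 2 treatments), 8 held an array whose distance to the nearest other value exceeded Dixon's 95% critical share of the group's whole range. Chance gives about 1 in 20 such groups. Of the 8, 4 lay in the G-CSF group, 3 of them high values in replicate 4. Cdk1 was 8.40 in G-CSF replicate 4, against 7.46 to 7.57 in the other 3. Racgap1 was 7.35 there, against 6.07 to 6.13, and Prc1 was 7.35 there, against 6.76 to 6.82. Dlgap5 was low in G-CSF replicate 1 with 6.56, against 6.87 to 6.91. In the PBS group, replicate 3 was high for Cdca8 with 8.21, against 6.59 to 6.86, and low for Ckap2 with 3.90, against 5.89 to 6.02. PBS replicate 1 was high for Kif4 with 6.16, against 5.33 to 5.44, and for Cip2a with 5.88, against 5.26 to 5.36.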

How the results depend on the processing

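With no detection calls, it is not known which dim probe sets lay above background. The count of mitotic genes higher at an unadjusted p under 0.05 stayed within 1.5 times of 29 in 19 alternatives, at 21 to 32, lowest without G-CSF replicate 4. Their median log2 fold change ran from 0.54 to 0.76, being 0.54 after renewed quantile normalization and 0.59 to 0.76 with 1 array left out, highest without G-CSF replicate 1. The count of mitotic genes with all G-CSF values above all PBS values was 14 after quantile normalization (beside 2.48% of all genes), 18 after median centring (beside 2.82%) and 20 to 26 with 1 array left out (beside 4.06% to 6.22%), alternatives chosen after seeing the data. The count over all genes, 19, was 4 at a threshold of 0.01, 52 at 0.10, 40 with array weights, 7 after quantile normalization, 0 with all 35556 probe sets and 3 to 31 with 1 array left out, being 3 without G-CSF replicate 2, 7 without replicate 4, 10 without replicate 1 and 31 without replicate 3. With all probe sets, 28 mitotic genes were higher at an unadjusted p under 0.05, beside 4.11% of probe sets (limma). With the replicate block the counts were 23 over all genes and 29 of 46, and no mitotic gene passed. Same-numbered arrays deviated from their group means with correlations of -0.03 to 0.14, 1 of 4 above 0.1, and not every array correlated best with its own number. These few correlations cannot show whether same-numbered samples shared a day or batch, and the labels give only the number. Of the values of single genes under each alternative, 854 kept their sign and their side of the adjusted threshold, 3 passed it (Cdca3 and Cip2a with array weights, Cip2a without PBS replicate 1) and 13 turned sign. The log2 fold change of Top2a was -0.25 with its dimmer probe set. After quantile normalization the log2 fold change of Kif20b was -0.092 and the log2 fold change of Kif23 was -0.10. With array weights the log2 fold change of Smc4 was 0.033. With 1 array left out, the log2 fold change of Kif18a ran from -0.085 (without PBS replicate 1) to 0.62, of Kif23 from -0.050 (without PBS replicate 1) to 0.20, of Smc4 from -0.075 to 0.035 (positive without PBS replicates 2 or 3), of Nek2 from -0.12 to 0.14 (negative without G-CSF replicate 3, PBS replicate 1 or PBS replicate 2) and of Pttg1 from -0.13 to 0.0076 (positive without G-CSF replicate 4 or PBS replicate 2). The cause was not tested.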

Other observations

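Top2a was the only one of the 46 genes with a second probe set annotated to it alone. That probe set was dimmer and had 4.64, 4.38, 3.76 and 4.52 in G-CSF replicates 1 to 4, against 4.34, 4.51, 5.42 and 4.04 in PBS replicates 1 to 4. Its log2 fold change was -0.25, where the kept probe set had 0.65, and PBS replicate 3, the array that stood apart, was its highest value.

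The megakaryocyte marker with the lowest p was Ppbp, a platelet chemokine, with 6.35, 5.95, 6.16 and 6.40 in G-CSF replicates 1 to 4, against 8.60, 7.74, 6.57 and 6.95 in PBS replicates 1 to 4. All G-CSF values lay below all PBS values, as they did for 2.78% of all genes. The log2 fold change of -1.25 (SE 0.37, adjusted p = 0.347) did not pass the threshold (limma).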
